A study of Mus musculus with 24 samples.

Results

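SCAP-deficient memory B cells of the lung were compared between a CCR6+CD69+ and a CCR6-CD69- population sorted from the same kind of mouse. The comparison holds 8 of the 24 libraries of the series, 4 of each population, chosen by their sample titles. All 8 carry the genotype SCAP fl/fl hCD20-TamCre and are called SCAP cKO here. The cells, csMBC in the labels, came from mice given house dust mite extract into the nose and then the same allergen again 6 weeks later, with SCAP deleted before that second exposure. The matching libraries from SCAP +/+ hCD20-TamCre mice, called WT, number 8 for the same populations and serve here for reference. The WT mice thus carry the Cre as well. The name of the Cre places it under human CD20, a surface protein of B cells, so deletion in any other cell of a sort is not implied. The labels do not say whether replicates were separate mice, so p-values measure the spread between these samples, which may be technical. Age and sex are not stated. Each population has 2 libraries in batch 1 (replicates 1 and 2) and 2 in batch 2 (replicates 3 and 4).

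SCAP is a protein of the endoplasmic reticulum that senses cholesterol and carries SREBP transcription factors to the Golgi, where they are cut and released to the nucleus. There they switch on genes of cholesterol synthesis, fatty acid synthesis and lipoprotein uptake. Memory B cells that settle in the lung respond quickly to returning antigen. CD69 holds lymphocytes in tissue by opposing the exit receptor S1PR1, and CCR6 is the receptor for the chemokine CCL20 of mucosal surfaces.

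Total counts over the rows analysed ran from 2081557 to 4181963 in the CCR6+CD69+ libraries and from 129025 to 4641148 in the CCR6-CD69- libraries. CCR6-CD69- replicate 4 is the library of 129025 counts. It had 2134 genes detected, against 4643 to 7316 in the other 3 of its group, and 69.3% of the genes tested had 0 counts in it. Replicates correlated at 0.708 to 0.790 within CCR6+CD69+ and at 0.425 to 0.694 within CCR6-CD69- (Pearson's r of log2 CPM, counts scaled to the library total, across genes, which are not independent replicates). The share of counts from ribosomal protein genes was 9.84 to 14.4% in the 4 libraries of batch 1 and 3.71 to 4.07% in those of batch 2. In CCR6-CD69- replicate 1 the gene with the most counts was Chil3, which alveolar macrophages secrete in quantity.

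Levels below are in CPM, and a fold change is the log2 of CCR6+CD69+ over CCR6-CD69-. Each carries its standard error (SE) and an adjusted p from edgeR's quasi-likelihood test with batch in the model, where 0.05 was the threshold. Scap was at 138, 43.5, 45.6 and 103 CPM in CCR6+CD69+ replicates 1 to 4 and at 139, 134, 86.5 and 0 CPM in CCR6-CD69-. The populations overlapped (log2 fold change -0.17 ± 0.93, adjusted p 0.981). Counts over the whole gene need not fall when some exons are deleted, so they do not check the deletion. Cd69, whose protein was used for sorting, was at 1029, 729, 1680 and 1256 CPM in CCR6+CD69+ and at 603, 604, 888 and 4224 CPM in CCR6-CD69-. The highest of the 8 values was thus in the shallow library of the population sorted as CD69-, and the gene did not pass (log2 fold change -0.36 ± 0.56, adjusted p 0.874, and 0.70 without that library). The Ccr6 transcript is not analysed here.

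In SCAP cKO lung, 31 genes were called and all 31 were lower in CCR6+CD69+ cells, by 1.36 to 11.03 on the log2 scale. They included the chemokine Ccl4, the cyclin Ccnd1, the Notch ligand Dll4, the apolipoprotein receptor Lrp8, the fatty acid desaturase Fads2, the antibody joining chain Jchain and 6 genes of a list of plasmacytoid dendritic cell markers. The 31 are 0.457% of 6779 genes tested. No gene passed as higher in edgeR (0%), where 364 were higher at an unadjusted p under 0.05. With DESeq2 72 genes passed as higher, and with limma voom 0. The median log2 fold change of all tested genes was 0.26, and 41.5% were below 0, so the calls lay on the opposite side from the bulk of the genes. With relative log expression factors that median was 0.07 and 55 genes were called, 0 of them higher.

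The number of calls changed with the libraries in the fit. With the 8 SCAP cKO lung libraries alone 8 genes were called, 6 of them among the 31. Leaving out CCR6+CD69+ replicate 1, 2, 3 or 4 left 15, 12, 13 and 14 calls, while leaving out any 1 CCR6-CD69- library gave 28 to 38. Batch 1 alone gave 8 calls and batch 2 alone 8, 3 of which were higher (Dusp2, Mical1 and Nr4a2). The log2 fold changes of 30 of the 31 genes were below 0 in both batches; the other gene, Elavl2, was at 0.65 in batch 1 and had no value in batch 2. By CPM, 17 of the 31 had all 4 CCR6+CD69+ libraries below all 4 CCR6-CD69- libraries. Over all tested genes 41 (0.605%) did so, and 266 (3.92%) lay the other way round. The 31 were called as lower from these same libraries, so their signs by batch and their separation are not independent support.

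**Figure D1:**
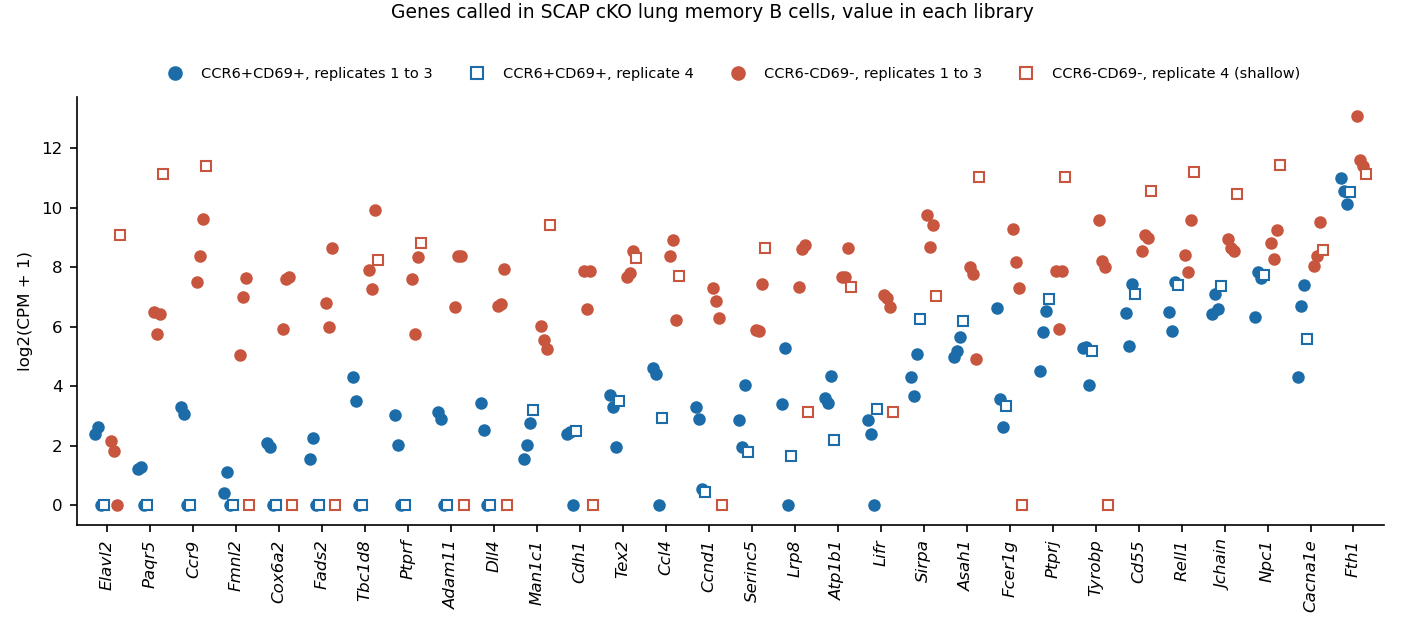
Level of 30 of the 31 called genes in the 8 SCAP cKO lung libraries, as log2(CPM + 1), ordered by log2 fold change from the largest fall (left). Blue marks are CCR6+CD69+ and red marks CCR6-CD69- libraries, with replicate 4 of each as an open square; the shallow CCR6-CD69- replicate 4 is the lowest of its group for several genes and the highest for others, Elavl2 and Paqr5 among them.

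The genes with the smallest p were Tex2, Ccl4 and Atp1b1. Tex2, a lipid-binding protein of the endoplasmic reticulum, was at 12.2, 8.85, 2.88 and 10.3 CPM in CCR6+CD69+ and at 203, 222, 378 and 318 CPM in CCR6-CD69-. No library of one population came near the other, and Tex2 fell by 5.05 ± 0.76 on the log2 scale (adjusted p 3.22e-05). Ccl4 encodes a chemokine that activated B cells, T cells and myeloid cells secrete. It was at 23.3, 20.6, 0 and 6.75 CPM in CCR6+CD69+ and at 335, 481, 74.5 and 209 CPM in CCR6-CD69-. Again the populations did not overlap (log2 fold change -4.76 ± 0.72, adjusted p 3.22e-05). Atp1b1, the beta subunit of the sodium pump, was at 11.2, 9.80, 19.2 and 3.55 CPM against 206, 203, 406 and 163 CPM. It fell by 4.47 ± 0.70 (adjusted p 6.16e-05). Without the shallow library all 3 kept their calls, at log2 fold changes of -4.86, -4.26 and -4.57. With the 8 SCAP cKO lung libraries alone they were at -5.02, -4.78 and -4.47, and none passed (edgeR adjusted p 0.0662, 0.0700 and 0.173).

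Atp1b1 is on a list of genes that mark plasmacytoid dendritic cells, the type I interferon producers whose identity is set by the factor TCF4. Of 19 tested members 16 were below 0, 6 were called (31.6%, against 0.457% of all genes), and the median log2 fold change was -3.12, beside 0.26 over all genes. Several members had been put on the list because earlier results of this series showed them low. The count, and the summed levels of the list below, are therefore descriptions and not independent evidence. The called members were Ccr9, Cox6a2, Tbc1d8, Ptprf, Atp1b1 and Lifr. B cells express some of the remaining members themselves: Tcf4, Plac8 and Fcrla were at log2 fold changes of 0.24, 0.04 and 0.11. The summed level of the list was 2282 to 2613 CPM in CCR6+CD69+ libraries and 4687 to 7111 CPM in CCR6-CD69- libraries, without overlap. In WT the same sums were 2560 to 2705 and 4318 to 5094 CPM. Of the 4937 CPM in the shallow SCAP cKO library, Ccr9 alone gave 2713 CPM. Siglech, Bst2 and Klk1, which define that cell type best, are not analysed here. Whether such cells gave part of the called falls was not tested, and fewer cells of a type cannot be told apart from less RNA per cell in bulk libraries.

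Ccr9, the receptor for the gut and thymus chemokine CCL25, was at 8.87, 7.41, 0 and 0 CPM in CCR6+CD69+ and at 181, 332, 782 and 2713 CPM in CCR6-CD69-. The lowest CCR6-CD69- library was far above the highest CCR6+CD69+ library (log2 fold change -8.55 ± 1.76, adjusted p 0.0331). Ptprf, a receptor tyrosine phosphatase, was at 7.23, 3.11, 0 and 0 CPM against 195, 53.1, 324 and 450 CPM, a log2 fold change of -6.89 ± 1.40 (adjusted p 0.00499). Tbc1d8, which belongs to a family of activators of Rab GTPases, was at 19.0, 10.5, 0 and 0 CPM against 239, 154, 971 and 302 CPM. It fell by 7.20 ± 1.29 (adjusted p 0.00561), also without overlap. Lifr, the receptor for leukaemia inhibitory factor, was at 6.24, 4.30, 0 and 8.52 CPM against 133, 125, 100 and 7.75 CPM. Only the shallow library reached into the CCR6+CD69+ range (log2 fold change -4.27 ± 1.04, adjusted p 0.0314). Cox6a2, a muscle-type subunit of cytochrome oxidase, was at 3.28, 2.87, 0 and 0 CPM against 59.7, 196, 203 and 0 CPM (log2 fold change -7.41 ± 1.71, adjusted p 0.0196). All 6 called members kept their calls without the shallow library. With the 8 SCAP cKO lung libraries alone Ccr9, Ptprf and Tbc1d8 passed, Atp1b1 and Lifr did not, and Cox6a2 had no value.

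E proteins such as TCF4 bind E-box motifs, and the bases before the starts of the called genes were searched for the letters CAGGTG on both strands. 2 promoters are shown as examples of a match among called genes of the list above, taken from RefSeq's GRCm38.p6 annotation (250 bases before the start, 5′ to 3′ on the plus strand, the motif in capitals). The Ccr9 stretch lies at chr9:123766961-123767210 and the Lifr stretch at chr15:7140292-7140541.
Ccr9: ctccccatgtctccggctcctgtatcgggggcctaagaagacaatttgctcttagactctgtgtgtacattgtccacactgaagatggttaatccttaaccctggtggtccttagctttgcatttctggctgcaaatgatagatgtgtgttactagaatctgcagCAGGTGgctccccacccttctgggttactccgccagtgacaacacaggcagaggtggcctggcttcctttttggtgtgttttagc
Lifr: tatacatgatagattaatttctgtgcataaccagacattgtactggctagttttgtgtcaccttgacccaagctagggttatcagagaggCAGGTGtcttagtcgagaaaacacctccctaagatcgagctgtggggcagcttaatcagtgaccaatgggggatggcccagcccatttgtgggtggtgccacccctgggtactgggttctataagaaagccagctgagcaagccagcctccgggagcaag
Of the 31 called genes 21 had an entry, with 32 starts, and the motif stood before 6 of them (18.8%), those of Ccr9, Fth1, Lifr, Lrp8 and Paqr5. Over all 32851 starts the share was 17.2%, close to that of the called genes, and a match in letters is not a binding site.

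Other called genes with low levels in CCR6+CD69+ included Dll4, Ccnd1, Fmnl2, Cdh1 and Adam11. Dll4, a membrane ligand of Notch receptors, was at 9.85, 4.78, 0 and 0 CPM in CCR6+CD69+ and at 104, 107, 246 and 0 CPM in CCR6-CD69- (log2 fold change -5.87 ± 1.21, adjusted p 0.00561). Ccnd1, the cyclin D1 that drives entry into the cell cycle, was at 8.87, 6.46, 0.480 and 0.355 CPM against 157, 117, 78.2 and 0 CPM (log2 fold change -4.71 ± 0.99, adjusted p 0.00561). Both were lower in every CCR6+CD69+ library than in CCR6-CD69- replicates 1 to 3, and the 0 of the shallow library, where 3 counts are worth 23.3 CPM, was the sole overlap. Fmnl2, a formin that assembles actin filaments, had 6 counts in all in the CCR6+CD69+ libraries and 711 in the CCR6-CD69- libraries (log2 fold change -7.57 ± 1.46, adjusted p 0.00304). Cdh1, the adhesion protein E-cadherin, was at 4.27, 4.54, 0 and 4.62 CPM against 236, 95.2, 235 and 0 CPM (log2 fold change -5.37 ± 1.14, adjusted p 0.00687). Adam11, a catalytically inactive member of the ADAM family, fell by 6.32 ± 1.43 (adjusted p 0.0233).

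Cd55, Rell1, Cacna1e and Serinc5 were also called. Cd55, which protects cells from complement, was at 88.3, 39.7, 172 and 136 CPM against 375, 542, 512 and 1504 CPM. It fell by 2.84 ± 0.59 (adjusted p 0.00561), without overlap. Rell1, a relative of the TNF receptor family member RELT, was at 89.0, 57.4, 183 and 168 CPM against 338, 231, 775 and 2379 CPM (log2 fold change -2.83 ± 0.57, adjusted p 0.00426). Cacna1e, a voltage-gated calcium channel subunit, was at 19.0, 103, 168 and 47.6 CPM against 262, 336, 742 and 388 CPM. It too was lower in every CCR6+CD69+ library, by 2.40 ± 0.58 on the log2 scale (adjusted p 0.0314). Serinc5, a membrane protein that restricts retroviruses, was at 6.24, 2.87, 15.4 and 2.49 CPM against 58.0, 57.7, 174 and 403 CPM (log2 fold change -4.53 ± 0.88, adjusted p 0.00304).

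Among the 31 called genes, 10 (32.3%) had counts in both batch 1 libraries of CCR6+CD69+ and 0 in both batch 2 libraries. This pattern held for 329 of all 6779 tested genes (4.85%). The called genes were all selected as lower in CCR6+CD69+ and the tested genes were not, so the shares are of unlike sets. Ccr9, Ptprf, Tbc1d8, Cox6a2, Dll4, Fads2, Fmnl2, Adam11, Paqr5 and Elavl2 are the 10 called genes. Their log2 fold changes are taken against low or absent counts in CCR6+CD69+. Those of Paqr5, for example, were -5.66 in batch 1 and -14.47 in batch 2. The part of the batch in these low counts was not tested.

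SREBP controls the lipid genes given next, most of which did not pass between the populations of SCAP cKO cells. Not passing does not show that a gene was equal in both. Of the 12 tested cholesterol synthesis genes, 9 were below 0 and 0 were called. Their median log2 fold change was -0.77, beside 0.26 over all genes. Without the shallow library 10 were below 0 and 0 were called, with a median of -1.19, beside 0.14 over all genes. Hmgcs1, which makes the HMG-CoA that feeds sterol synthesis, was at 98.2, 61.0, 95.1 and 131 CPM in CCR6+CD69+ and at 111, 19.4, 308 and 7.75 CPM in CCR6-CD69- (log2 fold change -0.09 ± 0.89, adjusted p 0.992). Pmvk, the phosphomevalonate kinase, had the smallest p of the list, at 6.90, 33.0, 61.0 and 50.4 CPM against 275, 116, 281 and 0 CPM. It did not pass at -1.96 ± 0.90 (adjusted p 0.382). The summed level of the 12 genes was 483 to 1068 CPM in CCR6+CD69+, and 1025 to 1477 CPM in CCR6-CD69- replicates 1 to 3 but 85.3 CPM in the shallow replicate 4. In WT the sums were 975 to 1108 and 1026 to 1541 CPM.

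In the list of SREBP control and sterol uptake, 7 of 10 tested genes were below 0 and 2 were called (20%, against 0.457% of all genes), or 1 without the shallow library. The median was -0.53, and 0.26 in batch 2 alone. Lrp8, a receptor for apolipoprotein E, was at 9.52, 38.3, 0 and 2.13 CPM against 162, 388, 433 and 7.75 CPM. It fell by 4.53 ± 0.87 (adjusted p 0.00304), and was at -4.79 without the shallow library. Npc1, which exports cholesterol from lysosomes, was at 79.1, 230, 198 and 212 CPM against 446, 310, 605 and 2790 CPM. Its populations did not overlap (log2 fold change -2.48 ± 0.62, adjusted p 0.0417), though without the shallow library it did not pass (-1.35, adjusted p 0.438). Insig1, the SREBP target that retains SCAP in the endoplasmic reticulum, was at 114, 30.8, 8.65 and 73.5 CPM against 129, 157, 156 and 0 CPM (log2 fold change -0.95 ± 0.81, adjusted p 0.697). The sums of this list, 570 to 906 against 1201 to 3015 CPM, did not overlap, nor did those of WT, 660.5 to 981 against 1225 to 1821 CPM.

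Fatty acid synthesis and desaturation genes were split, with 7 of 17 below 0 and a median of 0.13. Of the 17, 1 was called (5.88%, against 0.457% of all genes). Fads2, the delta-6 desaturase of polyunsaturated fatty acids and an SREBP target, was at 1.97, 3.83, 0 and 0 CPM against 111, 62.8, 397 and 0 CPM. The gene was thus high in the 3 deeper CCR6-CD69- libraries (log2 fold change -7.26 ± 1.66, adjusted p 0.0196, and -7.56 without the shallow library). Scd2, a stearoyl-CoA desaturase, was at 148, 91.6, 135 and 110 CPM against 360, 79.2, 189 and 256 CPM (log2 fold change -0.90 ± 0.63, adjusted p 0.607). Among other lipid genes called, Asah1 encodes the acid ceramidase and Paqr5 a membrane progesterone receptor. Pltp, the phospholipid transfer protein and an LXR target, was at 28.6, 12.7, 0 and 21.7 CPM against 312, 129, 26.3 and 0 CPM without passing (log2 fold change -2.51 ± 0.88, adjusted p 0.243).

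Of 7 tested plasma cell genes 6 were below 0, with a median of -2.23. Of the 7, 1 was called (14.3%, against 0.457% of all genes), or 0 without the shallow library. Their summed level overlapped, at 1070 to 1685 CPM in CCR6+CD69+ against 1232 to 4100 CPM. Jchain, which joins IgM and IgA into polymers, was at 84.7, 137, 96.1 and 163 CPM in CCR6+CD69+ and at 499, 403, 372 and 1426 CPM in CCR6-CD69-. The populations did not overlap, and Jchain fell by 2.55 ± 0.59 (adjusted p 0.0268). Without the shallow library it was at -1.82 with an adjusted p of 0.396, so the call was not kept in that repeat. Sdc1, the plasma cell marker syndecan 1, reached 42.7 CPM in CCR6-CD69- replicate 1 and at most 1.20 CPM in the other 7 libraries (log2 fold change -4.71 ± 1.81, adjusted p 0.315). Of the unfolded protein response genes 7 of 9 were below 0 and 0 were called, with a median of -0.57. Hsp90b1, a chaperone that folds secreted proteins, was at 685, 897, 1285 and 1515 CPM against 1660, 1491, 2669 and 3123 CPM (log2 fold change -1.09 ± 0.36, adjusted p 0.216). Ighg3, an IgG constant region gene that can share reads with its relatives, did not pass (log2 fold change -2.85 ± 0.89, adjusted p 0.190). Its populations nearly met, at up to 101.8 CPM in CCR6+CD69+ and from 101.9 CPM in CCR6-CD69-.

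Genes of myeloid cells were among the falls. Tyrobp, the DAP12 adaptor of activating receptors, was at 38.4, 39.5, 15.4 and 35.9 CPM in CCR6+CD69+ and at 781, 295, 256 and 0 CPM in CCR6-CD69- (log2 fold change -2.98 ± 0.67, adjusted p 0.0183). Fcer1g, the gamma chain of Fc receptors, was at 98.5, 11.0, 5.28 and 9.24 CPM against 623, 292, 158 and 0 CPM (log2 fold change -3.16 ± 0.80, adjusted p 0.0447). Both were high in all CCR6-CD69- libraries but the shallow one. Sirpa, an inhibitory receptor of macrophages and dendritic cells, was at 18.7, 11.7, 33.1 and 75.7 CPM against 863, 410, 691 and 132 CPM. It did not overlap (log2 fold change -4.02 ± 0.82, adjusted p 0.00499). Fth1, the ferritin heavy chain that stores iron, was at 2044, 1518, 1132 and 1467 CPM against 8688, 3112, 2702 and 2263 CPM. It had the smallest of the called falls (1.36 ± 0.34, adjusted p 0.0447), without overlap.

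Of 19 tested macrophage and monocyte markers 16 were below 0 and 0 were called, with a median log2 fold change of -3.12. By batch, that median was -5.46 (batch 1) and 0.094 (batch 2). Their summed level was 397 to 4529 CPM in CCR6+CD69+ libraries and 1903 to 58164 CPM in CCR6-CD69- libraries. The highest sum, that of CCR6-CD69- replicate 1, came with Chil3 at 32558 CPM, where the other 3 libraries of its group had Chil3 at 793 to 3782 CPM. Cd68, a lysosomal protein of macrophages, was at 13.1, 14.1, 3.36 and 64.6 CPM against 981, 80.9, 181 and 0 CPM (log2 fold change -3.44 ± 1.05, adjusted p 0.183). Leaving out both lung libraries led by Chil3, this one and WT CCR6-CD69- replicate 2, gave 35 calls, 27 of them among the 31. The part of macrophage RNA in the falls of Tyrobp, Fcer1g, Sirpa and Fth1 was not tested.

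Other marker lists were low or mixed. Of the conventional dendritic cell markers 6 of 11 were below 0. Sirpa and Ccr9 were called (18.2%, against 0.457% of all genes), and Ccr9 is on the plasmacytoid list too. The sums of the list did not overlap (2231 to 2867 against 4841 to 6293 CPM). Large parts of them came from Irf8, a factor of B cells too, at 683 to 898 against 1187 to 3066 CPM. Ccr7 was also a large part, at 883 to 1182 against 23.3 to 1144 CPM. Whether dendritic cells gave part of the difference in sums was not tested. In the shallow library Ccr9 at 2713 CPM and Irf8 at 1287 CPM made up most of the 4867 CPM. T cell markers were below 0 in 10 of 14, with sums of 174 to 408 against 69.8 to 1019 CPM; Cd4, at 8.21, 5.74, 0 and 29.5 CPM against 92.9, 240, 260 and 0 CPM, passed only without the shallow library (-4.32, adjusted p 0.0225). NK cell markers summed to at most 25.9 against 91.0 CPM, with Xcl1 at most 33.4 CPM. Granulocyte markers lay the other way, with 5 of 6 above 0; Mmp9, a secreted protease of neutrophils, was at 37.1, 3.11, 31.7 and 118 CPM against 1.51, 1.68, 0 and 0 CPM without passing (log2 fold change 6.90 ± 2.32, adjusted p 0.224). Of 4 tested epithelial markers Cdh1 was called as lower (25%, against 0.457% of all genes). The other 3 were above 0, and the median of the 4 was 0.99.

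**Figure D2:**
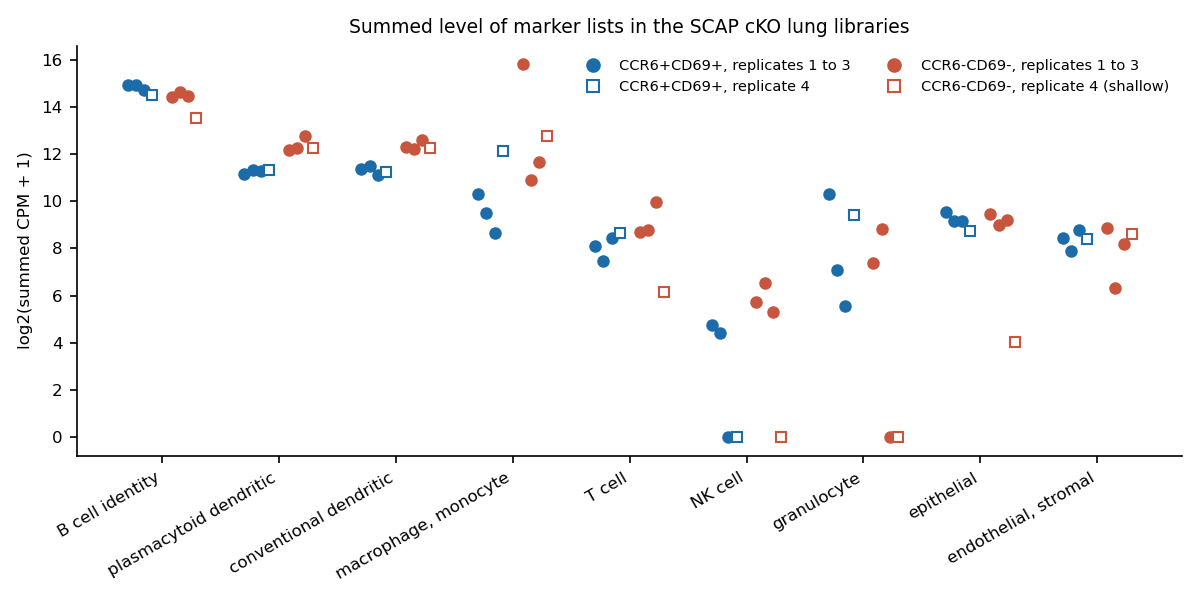
Summed level of 9 marker lists in each SCAP cKO lung library, as log2(summed CPM + 1), with CCR6+CD69+ in blue, CCR6-CD69- in red and replicate 4 of each as an open square. The plasmacytoid and conventional dendritic sums do not overlap between the populations, and the macrophage sum is highest in CCR6-CD69- replicate 1 (58164 CPM). Several plasmacytoid list members were put there because earlier results of this series showed them low. Ccr9 is on both dendritic lists, and the conventional list holds Irf8, a factor of B cells too.

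The shallow CCR6-CD69- replicate 4 had 0 counts for 9 of the 31 called genes and the highest value of all 8 libraries for 12. Without it 29 of 7021 genes were called (0.413%), all lower, and 24 of these were among the 31. The 7 genes that no longer passed were Asah1, Elavl2, Jchain, Man1c1, Npc1, Paqr5 and Ptprj. Elavl2, an RNA-binding protein of neurons, was at 543 CPM in the shallow library and at most 5.26 CPM in the other 7, and its log2 fold change went from -11.03 ± 2.55 (adjusted p 0.0196) to 0.79 (adjusted p 0.971). Man1c1, a mannosidase that trims glycans in the Golgi, was at 682 CPM there and at 36.9 to 64.9 CPM in the other CCR6-CD69- libraries. It was at 1.97 to 8.17 CPM in CCR6+CD69+, and its log2 fold change went from -5.46 to -3.42 (adjusted p 0.387). Paqr5 was at 2240 CPM there, 52.6 to 89.6 CPM in the other 3 and 0 to 1.43 CPM in CCR6+CD69+ (-9.61 ± 2.05, adjusted p 0.0233; -6.69, adjusted p 0.0996 without it). Ptprj, a receptor phosphatase of leukocytes, went from -3.04 to -1.58 and Asah1 from -3.78 to -2.01.

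Leaving that library out brought in 5 genes, again all lower in CCR6+CD69+. Selplg, the P-selectin ligand that mediates rolling on vessel walls, was at -2.14 without it (adjusted p 5.43e-04). Irf8, a transcription factor of B cells and dendritic cells, was at 872, 749, 898 and 683 CPM against 1187, 1917, 3066 and 1287 CPM (-1.28 without it, adjusted p 0.0478). Cd4 was brought in too, as was the receptor phosphatase Ptprs (-2.50, adjusted p 0.0478).

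**Figure D3:**
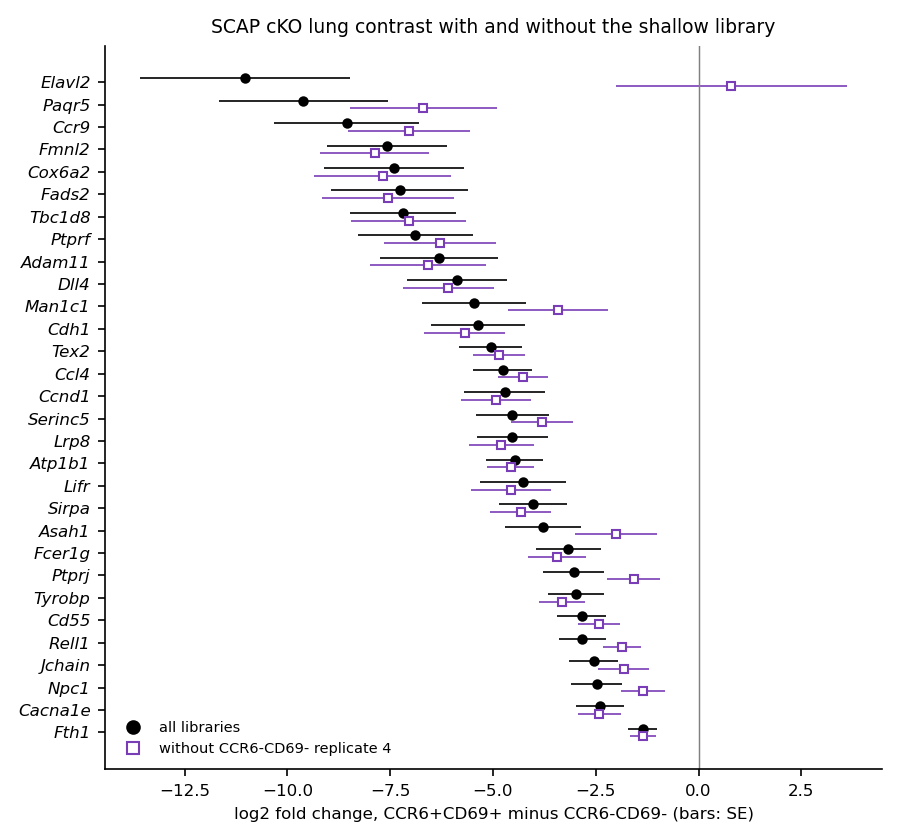
Log2 fold change of 30 of the 31 called genes with all libraries (black) and without the shallow CCR6-CD69- replicate 4 (open purple squares), with bars of 1 SE. Elavl2 moves from -11.03 to 0.79, while genes such as Tex2, Atp1b1 and Sirpa stay at or near their values.

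On the higher side, the 10 genes with the smallest p did not pass. Scai, a suppressor of cell invasion, was at 560, 527, 650 and 912 CPM against 86.8, 139, 272 and 109 CPM (log2 fold change 2.12 ± 0.64, adjusted p 0.163). Stk26, a kinase of the Golgi and cytoskeleton, was at 89.3, 84.2, 253 and 98.4 CPM against 6.46, 5.90, 29.3 and 0 CPM (3.60 ± 1.09, adjusted p 0.168). Both separated the populations in all 8 libraries. Ing3, a subunit of a histone acetyltransferase complex, was at 4.47 ± 1.24, and Rigi, a sensor of viral RNA, at 3.37 ± 1.01.

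Nr4a2 and Egr2, also among the 10, are transcription factors switched on by the antigen receptor. Nr4a2 was at 558, 257, 455 and 645 CPM against 181, 146, 13.5 and 0 CPM (2.16 ± 0.66, adjusted p 0.185). Egr2 was at 678, 827, 1025 and 679 CPM against 468, 205, 211 and 15.5 CPM (1.92 ± 0.61, adjusted p 0.199). Both lay above the CCR6-CD69- range in all 4 CCR6+CD69+ libraries. Of the 266 tested genes with that arrangement, 188 had 0 counts in the shallow library. Of the same 10, Cpsf7 of mRNA 3′ end processing, the ubiquitin-conjugating enzyme Ube2n and the lipid droplet protein Fitm2 had adjusted p of 0.199, 0.204 and 0.209.

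B cell programmes differed little. Of 14 B cell identity genes 6 were below 0, none was called, and the median was 0.15, close to 0.26 over all genes. Cd74, the invariant chain of MHC class II, was at 24422, 23942, 18527 and 17339 CPM against 17486, 18307, 14073 and 5573 CPM (log2 fold change 0.62 ± 0.27, adjusted p 0.364). Ms4a1, which encodes CD20, was at 1218, 1557, 1718 and 1676 CPM against 580, 928, 1097 and 876 CPM, without overlap (0.78 ± 0.41, adjusted p 0.450). Fcmr, the receptor for IgM, was at -1.04 ± 0.56 (adjusted p 0.463). MHC class II genes were above 0 in 7 of 9, with H2-DMb2 at 0.86 ± 0.45 and the protease Ctss at -1.46 ± 0.44; none passed.

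Genes of tissue residency and of exit from tissue did not separate the populations as lists. Of 13 tested residency genes 7 were below 0 (median -0.14) and of 14 recirculation and egress genes 5 were (median 0.45), with 0 calls in each. The egress list had 1 call without the shallow library and 1 in WT, where the residency list had 0 in both. In the egress list the transcription factor Foxp1 was at -2.20 ± 0.63 (adjusted p 0.125). Early response genes of the antigen receptor were above 0 in 10 of 15. The fall of Ccl4 was their 1 call (6.67%, against 0.457% of all genes). Interferon response genes were above 0 in 10 of 17 and proliferation genes in 11 of 18. Of the 18, Ccnd1 was called as lower (5.56%, against 0.457% of all genes). Over the 22 lists plotted the medians ran from -2.23 (plasma cell) to 1.01 (interferon response). In batch 1 alone the interferon list had a median of -0.51 and in batch 2 alone 3.16, so its position differed between batches.

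**Figure D4:**
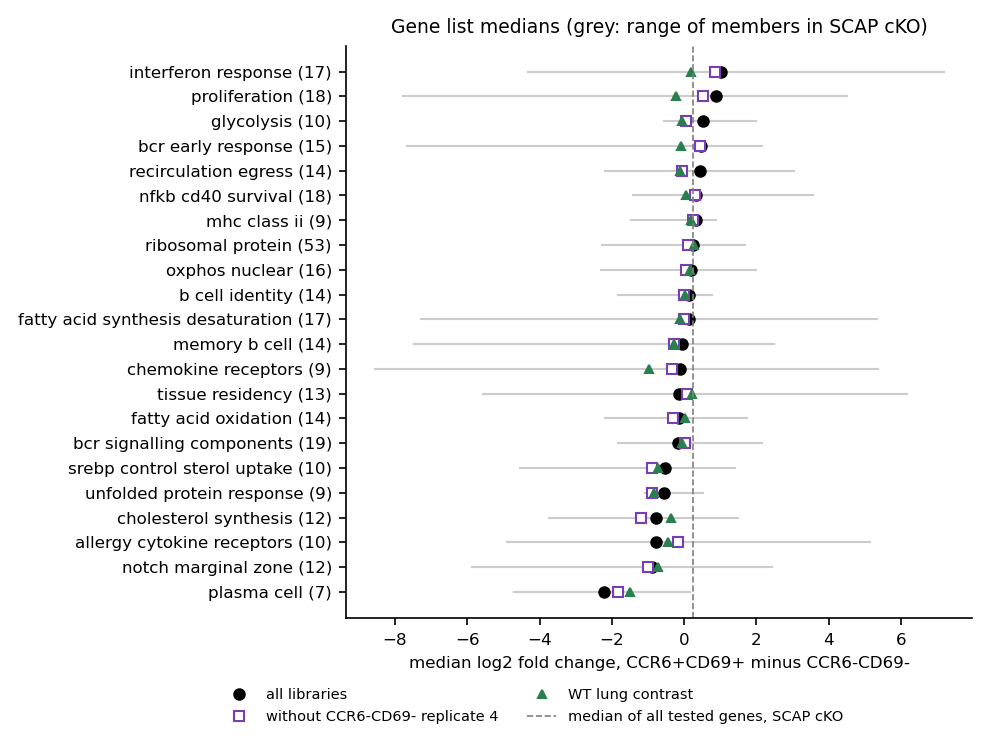
Median log2 fold change of 22 gene lists (number of tested members in brackets) in the SCAP cKO lung contrast with all libraries (black circles), without CCR6-CD69- replicate 4 (open purple squares) and in WT (green triangles). Grey bars span the lowest to the highest member in SCAP cKO, and the dashed line is the median of all tested genes (0.26); plasma cell genes have the lowest median (-2.23).

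The same 2 populations from WT mice share no library with the SCAP cKO contrast and gave 20 calls, all lower in CCR6+CD69+ (0.295% of genes tested). Both contrasts called 15 genes, which are 48.4% of the SCAP cKO calls and 75% of the WT calls. Among them are Atp1b1, Cacna1e, Ccl4, Ccnd1, Dll4, Fmnl2, Jchain, Lifr, Lrp8, Ptprf, Serinc5, Tbc1d8, Tex2 and Tyrobp. Every one of the 31 SCAP cKO calls was below 0 in WT, where 51.6% of all tested genes were, and every one of the 20 WT calls was below 0 in SCAP cKO. Clec10a, Pltp, Sdc4 and Tifa were among the 5 genes called in WT and not in SCAP cKO. Clec10a, a C-type lectin of dendritic cells and macrophages, was at 3.94, 3.35, 0 and 0 CPM against 53.7, 13.5, 0 and 0 CPM in SCAP cKO (log2 fold change -3.12 ± 1.30, and -6.04 ± 1.45 in WT). Tifa, an adaptor of NF-kB signalling, was at -2.57 ± 0.88 in SCAP cKO and -3.83 ± 0.93 in WT.

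Among the 16 called in SCAP cKO and not in WT, the WT log2 fold changes were -5.68 for Ccr9, -5.69 for Cox6a2, -5.69 for Adam11 and -4.73 for Fads2, beside -8.55, -7.41, -6.32 and -7.26 in SCAP cKO. For Npc1 it was -0.64 ± 0.58, for Fth1 -0.67 ± 0.34 and for Cd55 -1.43 ± 0.56. A test of the difference between the contrasts called 0 genes in edgeR (235 at an unadjusted p under 0.05, smallest adjusted p 1), while DESeq2 called 6 and limma voom 0. Of the 31 genes, which were chosen for being lower in SCAP cKO, 4 had an unadjusted p under 0.05 for that difference. They are Ccl4 (-2.02, unadjusted p 0.0280), Npc1 (-1.84, unadjusted p 0.0326), Elavl2 and Paqr5. Npc1, Elavl2 and Paqr5 did not pass in SCAP cKO without the shallow library.

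**Figure D5:**
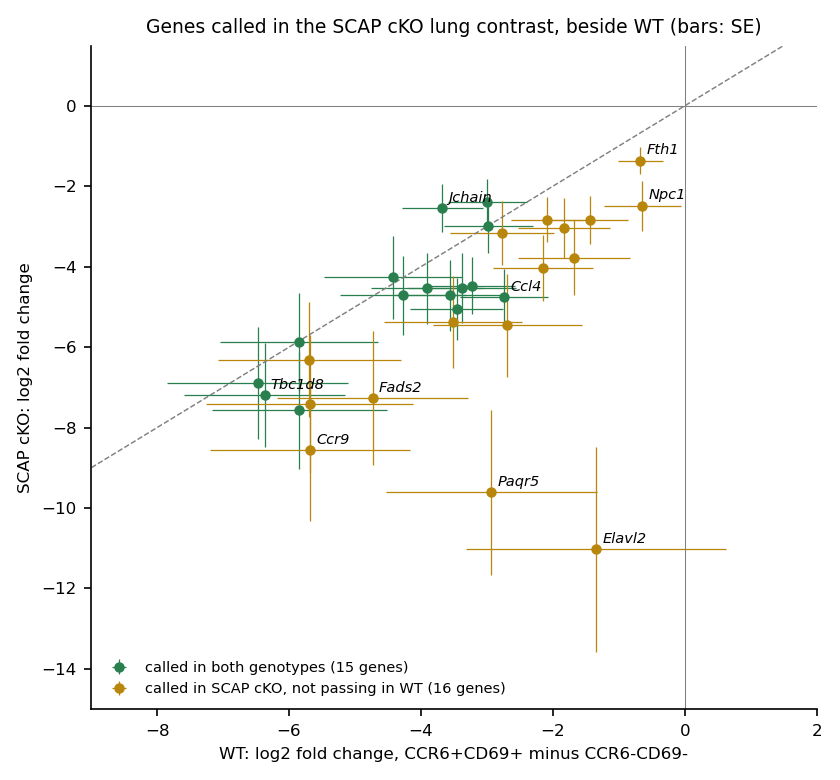
Log2 fold change of the 31 genes called in SCAP cKO lung (vertical) against their log2 fold change in WT lung (horizontal), with bars of 1 SE; green genes (15) were called in both, gold genes (16) did not pass in WT. All points lie below 0 on both axes; the dashed line marks equal values.

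The 5 genes with the smallest p for the difference between genotypes were Rps21, Art4, Abcb1a, Arhgef5 and Rsc1a1, each with an adjusted p of 1. Rps21, a protein of the small ribosomal subunit, was at 6808, 5465, 126 and 189 CPM in SCAP cKO CCR6+CD69+ and at 4666, 11116, 397 and 736 CPM in CCR6-CD69-. It followed the batches more than the populations, and the log2 fold changes were -1.17 ± 0.38 in SCAP cKO and 0.77 ± 0.37 in WT. The other 4 had counts in few SCAP cKO lung libraries. Art4 (33 counts) and Rsc1a1 (29 counts) were counted in CCR6-CD69- replicate 2 alone, Arhgef5 (13 counts) in CCR6+CD69+ replicate 3 alone, and Abcb1a at 70.3 CPM in CCR6+CD69+ replicate 1 and 0.421 CPM in CCR6-CD69- replicate 2.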

How the data were processed

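PolyA RNA of sorted lung memory B cells was sequenced from libraries made for low cell input, per the labels' protocols. The deposited table holds raw counts as whole numbers, 18470 gene symbols by 24 samples. FastQC, STAR, Salmon and mm39 are named, without versions or roles, per the submitters' processing notes. Rows for some genes are not analysed here, so totals cover the rows analysed.

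Groups came from sample titles. Testing used R 4.3.3 and edgeR 4.0.16: TMM scaling, filterByExpr by group, a robust quasi-likelihood F-test over all 24 libraries with group and batch, and Benjamini-Hochberg adjustment over 6779 genes (dispersion 1.20). CPM used library totals; 3 counts were taken as the floor, and covers counting error only. Alternatives used limma 3.58.1 and DESeq2 1.42.0. On simulated data for this contrast with 6779 genes, 78% of 100 genes changed 16-fold and 19% of 100 changed 4-fold were called. Of 100 calls 3 were unchanged genes. The changed genes were drawn only from those at or above the median level, and no batch effect was simulated. The rates thus do not cover lower genes or genes that differ between batches.

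The contrast, the gene lists and the genes named were chosen with earlier results of these data known. Named were 5 fixed genes, the 15 largest falls, the 10 rises of smallest p, up to 3 members of each list, and the 5 genes of smallest p for the genotype difference; the other called genes and those gained without replicate 4 were named after their values were seen. Some genes that the rule names are not reported here.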

Additional observations from a re-analysis of the deposited data

Results flagged for a closer look

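Of 157 sets of 4 SCAP cKO lung libraries tested for a library far from the other 3 (named genes, marker sums and totals), 26 were so set apart (16.6%). The limit used is passed by chance in about 1 of 20 groups of normally distributed values, which CPM with many zeros are not. CCR6-CD69- replicate 4, the shallow library, stood apart in 9 of them. There Cd69 was at 4224 CPM, Cd55 at 1504, Elavl2 at 543, Man1c1 at 682, Paqr5 at 2240, Jchain at 1426, Ptprj at 2124, Asah1 at 2093 and Npc1 at 2790 CPM, all above the other 3 libraries of the group. CCR6-CD69- replicate 1 stood apart in 5: Fth1 at 8688, Sdc1 at 42.7, Ctss at 11831 and Chil3 at 32558 CPM, and the macrophage and monocyte sum at 58164 CPM. In CCR6-CD69- replicate 3 the conventional dendritic sum was 6293 CPM, with the others at 4841 to 5059, and the plasmacytoid dendritic sum was 7111 CPM, with the others at 4687 to 4988. In CCR6-CD69- replicate 2, Art4 was at 13.9 and Rsc1a1 at 12.2 CPM, with 0 in the other 3.

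Within CCR6+CD69+, replicate 4 had Ptprs at 125 CPM (11.0 to 16.3 in the others) and Chil3 at 1895 CPM (12.5 to 320.2). Replicate 3 had Cdh1 at 0 CPM, Tyrobp at 15.4, Stk26 at 253 and Arhgef5 at 6.25 CPM. Replicate 1 had Fcer1g at 98.5 CPM (5.28 to 11.0 in the others) and Abcb1a at 70.3 CPM with 0 in the other 3.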

How the results depend on the processing

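The main count of 31 calls, all lower, became 55 with relative log expression factors (55 lower), 347 with DESeq2 (275 lower, 72 higher), 84 with no filter (80 lower, 4 higher), 13 with no batch term, 8 in batch 1, 8 in batch 2 (5 lower, 3 higher), 8 with the 8 SCAP cKO lung libraries alone and 20 with a fold change minimum. Limma voom gave 41 and both other filters 31. The 16 lung libraries alone gave 35 (6 higher, among them Cdh17, Ing3, Scai, Stk26 and Tdp2). Leaving out 1 library gave 12 to 38 calls, 12 to 37 lower and 0 to 1 higher. Chosen after seeing the data, the SCAP cKO lung libraries less CCR6-CD69- replicate 4 gave 19 lower and 2 higher; leaving out both libraries led by Chil3 gave 1 higher, and so did leaving out replicate 4 as well. The difference between genotypes had 6 calls with DESeq2 and 3 with no filter. Of 30 list medians 17 were below 0, and 9 in batch 2 alone. With the replicate number as a block in place of batch 20 genes were called, 19 of them among the 31. Same-numbered libraries of the populations were compared by their deviations from group means in log2 CPM, which correlated at 0.095 to 0.133. Deviations from group and batch means correlated at 0.019 to 0.062. In neither case did every library correlate best with its own number. The labels do not say whether same-numbered libraries come from the same mouse, and they were not treated as pairs.

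Signs changed mainly among genes that did not pass. Scap was at 0.72 in batch 2, 0.093 with the 8 libraries, 0.16 with the replicate block, 0.14 without the libraries led by Chil3, and -0.76 to 0.14 with 1 library left out. Cd69 was at 0.39 in limma voom, 0.56 in batch 1, 0.58 without the libraries under 500000 counts, 0.032 with the replicate block, 0.60 with the SCAP cKO lung libraries less replicate 4, 0.69 without replicate 4 and the libraries led by Chil3, and -0.60 to 0.70 with 1 library left out. Hmgcs1 was at 0.40 in limma voom, 0.30 in batch 1, 0.32 with the replicate block, 0.18 without the libraries led by Chil3, and -0.44 to 0.81 with 1 library left out. The called gene Elavl2 was at 0.65 in batch 1, 0.60 without the libraries under 500000 counts, 0.93 without replicate 4 and the libraries led by Chil3, and -12.22 to 0.79 with 1 library left out. Of genes counted in few libraries, Arhgef5 was at -0.26 in limma voom and -0.10 to 4.10 with 1 library left out, and Abcb1a at -1.27 to 8.16; Sdc1, Clec10a, Art4, Abcb1a and Rsc1a1 had no value in batch 2. The cause was not tested. Depth limits low genes most: 3 counts are worth 23.3 CPM in replicate 4.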
